A study of Homo sapiens with 6 samples.

Results

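Interferon-stimulated genes are the antiviral genes that a cell switches on when interferon binds its receptors. The set described here held 35 genes picked by symbol: 4 transcription factors, 3 double-stranded RNA sensors and kinases, 4 oligoadenylate synthetases, 4 IFIT genes, ISG15 and 3 of its enzymes, 4 ADP-ribosylation genes, 5 IFI genes and 7 other effectors. All 35 had a row among the 37923 genes of the deposited count table, and 25 passed the filter on low counts and could be tested.

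RNA was sequenced from 6 samples of cells labelled RKO, a human line from a colorectal carcinoma. Of these, 3 formed the Control group and 3 the ENZ group, which the series design states was exposed to compound A3, a degrader of the histone demethylase LSD1. RNA was collected 48 h after treatment. Both groups carry the same cell line label, and the labels name no genetic change between them. The sources used here do not give the dose, what the Control cells received, or what ENZ stands for. The design names the libraries of a group biological replicates without saying what kept them apart, so each p-value reflects how far these libraries spread, which may be technical.

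Type I interferons bind a receptor made of IFNAR1 and IFNAR2, whose kinases JAK1 and TYK2 phosphorylate STAT proteins, STAT2 among them. With IRF9, the phosphorylated STAT proteins form a complex that binds the interferon-stimulated response element, or ISRE, in the promoters of target genes. Interferon gamma instead acts through IFNGR1 and IFNGR2 and leads to binding at gamma-activated sequences, or GAS. Many of the targets sense or block viral RNA, and several are themselves parts of the pathway, so the response feeds itself. Loss of LSD1 has been reported to raise double-stranded RNA and interferon signalling in some tumour cells, so the question for this gene set is how it differs between the treated and Control cells.

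Totals ran from 26691289 to 28207612 counts per library in Control and reached 30025543 in ENZ, where the lowest was 26756840. The markers did not match the labelled line. Of 6 colorectal markers with a row, 5 were under 1 CPM (counts per 1000000 counts of the library), and VIL1 held most of the summed level of 39.4 to 60.5 CPM. In contrast, 8 of 8 prostate luminal markers were at or above 1 CPM, among them FOLH1, HOXB13 and KLK4. Their summed level was 1296 to 1325 CPM in Control and 1336 to 1351 CPM in ENZ. The sum hides moves both ways: 3 of the 8 were called higher, FOLH1 (0.49 on the log2 scale), TMPRSS2 (0.75) and HOXB13 (0.34), and 4 lower, SLC45A3 (-1.69), STEAP2 (-1.03), KLK2 (-0.58) and KLK4 (-0.40). Over all tested genes, 20.5% were called higher and 19.3% lower. The part of these marker differences in the results below was not tested. All 9 leukocyte markers with a row were under 1 CPM, CD3E and ITGAM were at 0 in every library, and the summed level was 1.14 to 2.23 CPM. The transcript of LSD1 itself, KDM1A, differed by -0.02 on the log2 scale (adjusted p = 0.681), which does not measure degradation of the protein. Because whole cultures were sequenced, fewer cells expressing a gene and less of its RNA per cell cannot be told apart.

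The promoters are shown first because most of the set shares one element. RefSeq promoter windows (GRCh38.p14, 250 bases before to 50 bases after each start) were found for 28 of the 35 genes, in 35 windows. The ISRE core was searched as GAAANNGAAA and the GAS as TTCNNNGAA, on both strands, and matches of either kind could overlap. An ISRE core was present in 21 of the 28 genes (75.0%), against 4.38% of all 27303 genes with a window and 3.94% of the 16460 that are also in the count table. A GAS was present in 8 of the 28 (28.6%), against 9.38% of all genes. The 7 matched genes with no ISRE core in the window were IFI35, IRF1, IRF9, OAS1, SAMD9L, STAT2 and XAF1. The search allowed a single spacing only. Windows of OAS1 and XAF1 hold GAAACGAAA and that of IFI35 holds GAAATGAAA, a closer spacing that was not counted. A match is a description of the letters, not a measured binding site. Shown are genes that were higher in ENZ, lower in ENZ, barely expressed, or expressed without a call, with ISRE cores in capitals and the coding strand 5′ to 3′. The window of ISG15, the highest of the set, is chr1:1013247-1013546 (+). That of HERC5, the member with the largest fold change among those tested, is chr4:88456869-88457168 (+). OAS3, lower in ENZ, has chr12:112938224-112938523 (+). IFIT1, a classical target that was barely detected, has chr10:89392373-89392672 (+). DTX3L, expressed but not called, faces PARP9 head to head and has chr3:122564088-122564387 (+).
ISG15: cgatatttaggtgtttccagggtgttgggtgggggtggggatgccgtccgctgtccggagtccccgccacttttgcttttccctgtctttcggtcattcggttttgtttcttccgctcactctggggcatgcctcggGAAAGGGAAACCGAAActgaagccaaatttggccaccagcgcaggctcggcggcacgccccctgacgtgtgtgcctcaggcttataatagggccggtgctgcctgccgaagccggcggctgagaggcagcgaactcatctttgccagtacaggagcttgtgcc
HERC5: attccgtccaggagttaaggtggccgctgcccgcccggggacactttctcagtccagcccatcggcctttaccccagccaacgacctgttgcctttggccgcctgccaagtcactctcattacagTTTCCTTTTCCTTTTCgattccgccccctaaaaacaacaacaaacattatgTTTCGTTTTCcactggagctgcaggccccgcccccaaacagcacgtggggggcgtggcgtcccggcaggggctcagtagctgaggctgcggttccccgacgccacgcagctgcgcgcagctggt
OAS3: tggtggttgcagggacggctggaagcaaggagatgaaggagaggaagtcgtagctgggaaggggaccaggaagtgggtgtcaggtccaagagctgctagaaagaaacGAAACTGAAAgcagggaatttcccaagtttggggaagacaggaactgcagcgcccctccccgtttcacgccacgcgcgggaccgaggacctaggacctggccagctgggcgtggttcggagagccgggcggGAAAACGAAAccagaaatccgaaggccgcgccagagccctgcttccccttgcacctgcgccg
IFIT1: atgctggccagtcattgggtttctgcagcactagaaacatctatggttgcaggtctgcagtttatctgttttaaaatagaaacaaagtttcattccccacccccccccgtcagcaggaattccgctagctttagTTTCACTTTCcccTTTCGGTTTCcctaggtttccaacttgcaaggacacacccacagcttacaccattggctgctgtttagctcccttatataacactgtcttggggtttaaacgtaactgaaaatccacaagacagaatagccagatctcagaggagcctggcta
DTX3L: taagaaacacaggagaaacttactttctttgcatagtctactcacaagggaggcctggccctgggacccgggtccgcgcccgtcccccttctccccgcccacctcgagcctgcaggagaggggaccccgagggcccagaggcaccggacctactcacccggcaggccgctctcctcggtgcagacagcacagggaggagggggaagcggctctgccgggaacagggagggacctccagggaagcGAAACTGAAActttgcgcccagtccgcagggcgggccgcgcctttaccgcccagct

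Counting the first transcribed base as 1 with no base 0, the ISG15 window holds overlapping ISRE cores from -113 and -107. HERC5 has cores from -125, -119 and -74, all read on the opposite strand, and OAS3 has them from -143 and -12. IFIT1 has cores from -116 and -103 on the opposite strand. A single core at chr3:122564332-122564341 lies in the windows of both DTX3L (from -6) and PARP9 (from -41), genes that are transcribed away from each other. An ISRE core was present in 14 of 17 matched genes with a mean of at least 1 CPM and in 7 of 11 under 1 CPM. Expressed and barely expressed members also differed in CpG content: the median was 20 CpG per window in the 20 windows of members at or above 1 CPM and 4 in the 15 windows of members below it. The same split over all genes of the count table was 25 against 9, so the direction is shared with other genes. Within families, OAS3 had 20 CpG and OAS1 had 1, and IFIT5 had 16 against 4 for IFIT1. Going the other way, BST2 with 2 and TRIM21 with 6 were expressed. The members tested for ENZ against Control below can be split by call. Matched genes that were lower held an ISRE core in 5 of 5 cases and those not called in 11 of 13. Those that were higher held it in 2 of 4 (ISG15 and MX1), where IFI35 counts as lacking it despite its closer-spaced match.

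The members ranged from well expressed to undetected. Of the 35 genes, 11 had a mean of at least 10 CPM over the 6 libraries, 9 lay between 1 and 10 CPM, and 15 were under 1 CPM. The 7 highest members held 76.3% of all CPM of the set. To compare genes, levels are given in FPKM, the fragments scaled to gene length and library total. The gene length used can exceed that of the longest transcript, as for MX1 below, which lowers the FPKM. For USP18 the length used was shorter than the 2954 bases of its longest transcript, which raises the FPKM. A mean of 1 FPKM was reached by 17 members. ISG15, the ubiquitin-like protein that is attached to other proteins during the response, was highest at 98.2 ± 5.47 FPKM in Control and 117 ± 8.19 in ENZ (SD, n = 3). USP18, which removes ISG15 and also restrains the type I receptor, followed at 18.3 ± 0.495 and 17.2 ± 0.110 FPKM. DTX3L, a ubiquitin ligase that works with PARP9, stood at 12.4 ± 0.420 and 11.4 ± 0.191 FPKM. These 3 levels did not overlap each other in any library, but the order of USP18 and DTX3L depends on the length used. The next were the kinase EIF2AK2 (mean of all 6 libraries 7.50 FPKM), IFI35 (6.89), PARP9 (6.09) and PARP14 (5.53), whose order by mean differed between the groups. STAT2 (4.50 FPKM) and ISG20 (4.49) had nearly the same mean.

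At the other end, OAS2 and XAF1 had 0 counts in all 6 libraries, which allows up to 0.0999 to 0.112 CPM per library (3 counts, counting error only). OAS1 had 0, 0 and 2 counts in Control and 1, 0 and 4 in ENZ. OASL had 7, 1 and 7 against 2, 6 and 8 counts, so the groups overlapped. IFI44 and IFI44L, neighbours on chromosome 1, had at most 4 counts in a library. IFIT2 stayed between 2 and 6 counts and UBA7, the enzyme that activates ISG15, between 1 and 13. SAMD9L had at most 4 counts. IFIT1, IFIT3, IFI6 and IFI27, which many cells raise steeply under interferon, lay between 4 and 16 counts. ISG15 at the top of the FPKM order and UBA7 at 0.0524 FPKM thus stood far apart, and UBE2L6, the conjugating enzyme of ISG15 (named after its values were seen), was at 0.145 FPKM.

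**Figure D1:**
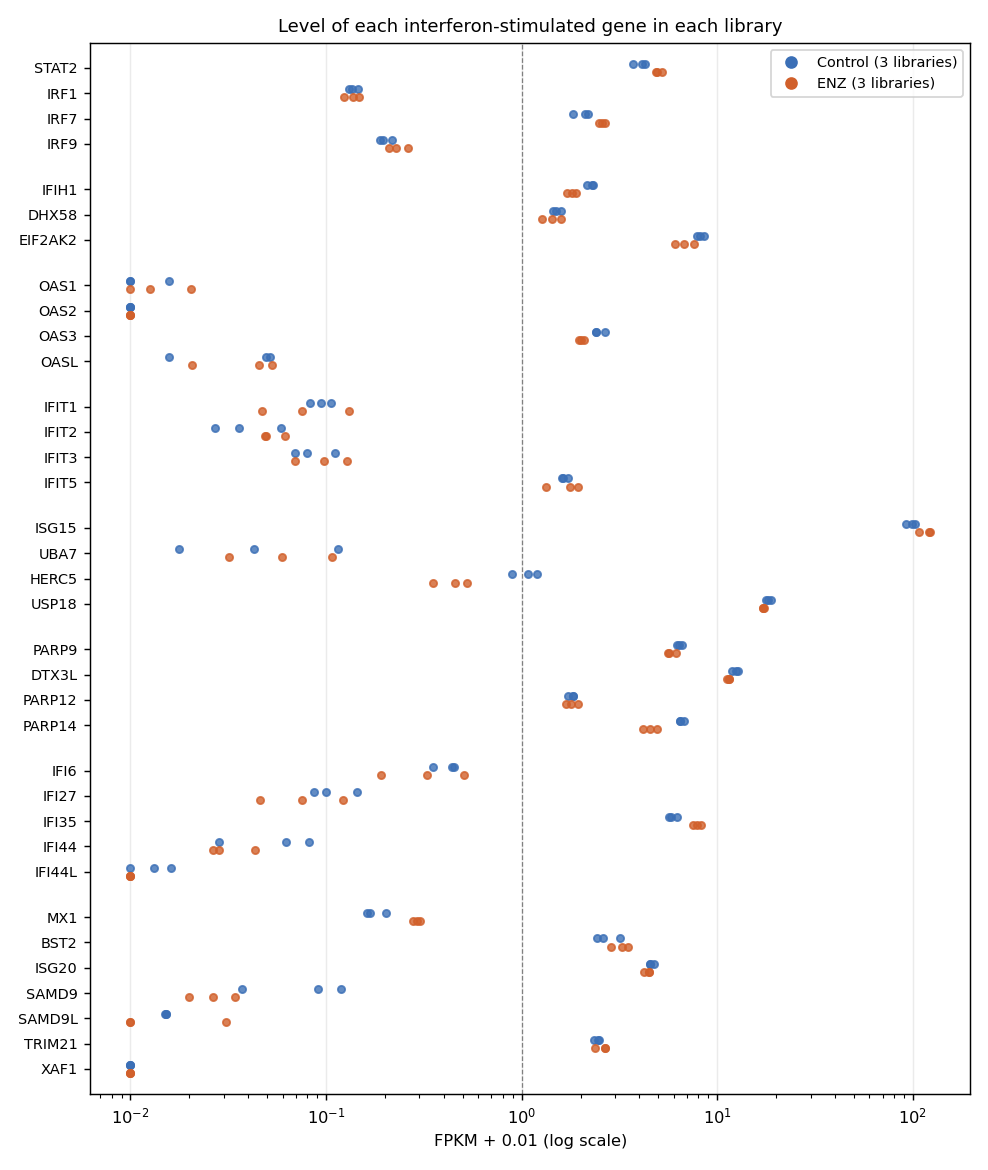
FPKM of each of the 35 interferon-stimulated genes on a log axis, after a small constant was added so that 0 can be drawn; each point is 1 library, blue for Control and orange for ENZ, and the dashed line marks 1 FPKM. Genes are grouped by role, and in most families 1 or a few members, such as OAS3 and IFIT5, sit to the right of the line while their relatives sit far to its left.

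Between ENZ and Control the set did not move as a block. Of the 25 tested members, 10 passed an adjusted p of 0.05, a share close to the 39.8% of all 18581 tested genes that did so. Of these, 5 were higher in ENZ (ISG15, STAT2, IRF7, IFI35 and MX1), beside 20.5% of all genes, and 5 were lower (HERC5, PARP14, IFIH1, OAS3 and EIF2AK2), beside 19.3%. The counts by family below rest on 1 to 4 tested genes each, and no family was tested as a group. With offsets for GC content and length the split was 5 higher and 3 lower, and with library totals alone it was 5 higher and 7 lower. The median log2 fold change was -0.04 over the tested members and -0.01 over all tested genes. Most differences were small: 8 of the 10 were under 0.5 on the log2 scale, and HERC5 was the only tested member past 1. Of all tested genes, 2.98% were both called and past 1. The summed CPM of the 35 genes was 572, 583 and 583 in Control and 551, 548 and 537 in ENZ. Fold changes and adjusted p-values are from edgeR's quasi-likelihood test with TMM scaling and Benjamini-Hochberg adjustment over all tested genes. CPM values use the library totals, and errors are SD over 3 libraries for levels and SE for fold changes. Groups did not overlap in 14 of the 25 tested members, among them USP18, PARP9, DTX3L and ISG20, which were not called. The same share over all tested genes is not given here, so lack of overlap only describes the libraries.

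**Figure D2:**
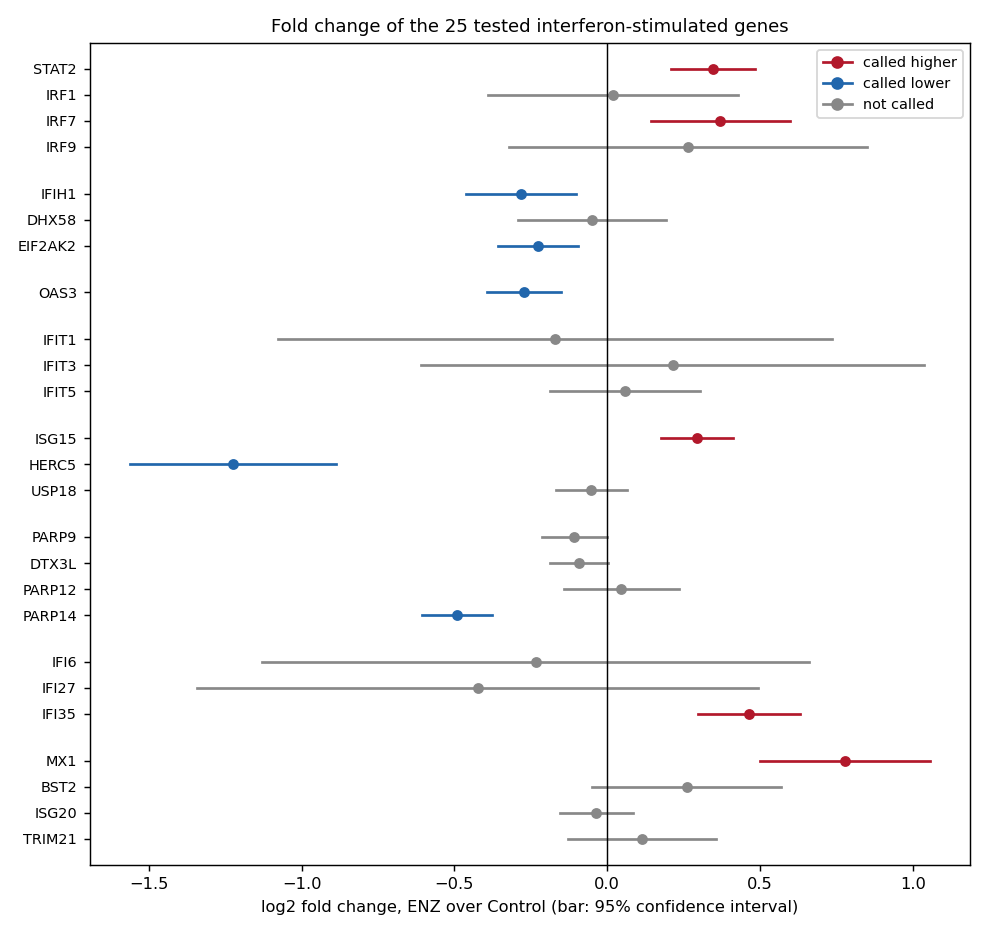
Log2 fold change of ENZ over Control for the 25 tested members, ordered by role, with 95% confidence intervals as bars; red marks members called higher, blue those called lower and grey those not called. HERC5 at -1.23 and MX1 at 0.78 lie farthest from 0 among the called members, and the widest intervals belong to barely expressed genes such as IFI27 and IFIT1.

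Among the transcription factors, 2 of 4 rose and none fell, beside 20.5% higher and 19.3% lower of all tested genes. STAT2 (chr12:56341597-56360203), the STAT protein particular to interferon signalling, read 22.9, 26.4 and 25.5 CPM in Control and 29.97, 30.5 and 32.3 CPM in ENZ. All 3 ENZ libraries lay above all 3 Control libraries, with a log2 fold change of 0.35 ± 0.07 (adjusted p = 0.000241). IRF7 (chr11:612553-615983), which drives interferon genes themselves, read 5.67, 4.75 and 5.51 CPM against 6.49, 6.95 and 6.67 CPM. The groups again did not overlap, and the log2 fold change was 0.37 ± 0.11 (adjusted p = 0.0101). Without Control replicate 2, this adjusted p was 0.0569, and with GC and length offsets the log2 fold change was 0.22 (adjusted p = 0.113). IRF9, the DNA-binding partner of STAT2 in the complex, was low at 0.681 ± 0.0562 and 0.799 ± 0.0933 CPM (log2 fold change 0.26, 95% interval -0.32 to 0.85). It shares 23.9% of its exon bases with a readthrough gene on the same strand, so its count is uncertain. IRF1 was at 1.56 ± 0.0862 and 1.55 ± 0.144 CPM (0.02, interval -0.39 to 0.43). Its exons overlap those of the antisense gene IRF1-AS1 over 22.9% of their bases, and the kit did not keep strand.

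Of the RNA sensors and kinase, 2 of 3 fell and none rose, beside 19.3% lower and 20.5% higher of all tested genes. EIF2AK2 (chr2:37099210-37157522) encodes PKR, which stops translation when it meets double-stranded RNA. It read 89.6, 86.8 and 94.2 CPM in Control and 83.8, 74.9 and 67.2 CPM in ENZ. Every ENZ library was below every Control library, though ENZ replicate 1 lay near them, and the log2 fold change was -0.23 ± 0.06 (adjusted p = 0.00828). Without Control replicate 3 the adjusted p was 0.0530. IFIH1 (chr2:162267074-162318684), the cytosolic sensor MDA5, read 10.9, 11.6 and 11.7 CPM against 9.66, 9.12 and 8.67 CPM. Its groups did not overlap, with a log2 fold change of -0.28 ± 0.09 (adjusted p = 0.0124). Without Control replicate 3 or ENZ replicate 3 the adjusted p was 0.0543 or 0.0510, and DESeq2 gave 0.0631. With GC and length offsets neither gene was called, at -0.06 for EIF2AK2 (adjusted p = 0.251) and -0.19 for IFIH1 (adjusted p = 0.0733). DHX58, the related regulator LGP2, was at 5.75 ± 0.298 and 5.43 ± 0.613 CPM and was not called (-0.05, interval -0.29 to 0.19).

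Oligoadenylate synthetases make the messenger that activates RNase L, and OAS3 was the single member of the family with enough counts to test. OAS3 (chr12:112938051-112976460) read 43.2, 48.2 and 43.0 CPM in Control and 36.3, 35.1 and 37.4 CPM in ENZ. The groups did not overlap, and the log2 fold change was -0.27 ± 0.06 (adjusted p = 0.000766). Its direct neighbours OAS1 (chr12:112905856-112933219) and OAS2 (chr12:112978395-113011723) were at or near 0 in the same libraries. None of the 3 tested IFIT genes, whose proteins bind viral RNA ends, was called, beside 39.8% of all tested genes. IFIT5 was at 7.17 ± 0.287 and 7.29 ± 1.36 CPM (0.06, interval -0.19 to 0.30). IFIT1 had 11, 12 and 9 counts against 9, 15 and 5 (-0.17, interval -1.08 to 0.74), and IFIT3 had 10, 14 and 8 against 9, 16 and 13 (0.21, interval -0.61 to 1.04). Both intervals are wide and include 0, so at this depth a rise or a fall within them cannot be told from no difference.

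ISG15 and its ligase HERC5 went in opposite directions. ISG15 (chr1:1001138-1014540) read 80.0, 89.4 and 85.9 CPM in Control and 93.7, 105 and 107 CPM in ENZ. The lowest ENZ library was above the highest Control library, and the log2 fold change was 0.29 ± 0.06 (adjusted p = 0.000404). HERC5 (ENSG00000138646, chr4:88457119-88506163), the main ligase that attaches ISG15 in human cells, had 118, 154 and 136 counts in Control and 74, 57 and 48 in ENZ. In CPM these were 4.18, 5.67 and 5.10 against 2.46, 2.13 and 1.63. The groups did not overlap, and HERC5 was 2.34-fold lower in ENZ. Its log2 fold change was -1.23 ± 0.16, with an interval of -1.56 to -0.89 and an adjusted p of 3.48e-06. USP18, which strips ISG15 off again, read 34.9, 33.9 and 33.1 CPM against 31.8, 32.0 and 32.2 CPM. Its ENZ libraries were all lower, but it was not called (-0.05, interval -0.17 to 0.06, adjusted p = 0.488). Reads of USP18 and its near-identical copy USP41, which had 2 to 40 counts a library, may have been split by the counting.

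All 4 genes of the ADP-ribosylation group were tested, and only PARP14 was called, beside 39.8% of all tested genes. PARP14 (ENSG00000173193, chr3:122680839-122730840), a mono-ADP-ribosyltransferase, read 69.4, 65.9 and 65.9 CPM in Control and 50.7, 46.4 and 42.6 CPM in ENZ. The groups were well apart, and PARP14 was 1.41-fold lower in ENZ (log2 fold change -0.49 ± 0.06, adjusted p = 3.97e-07). PARP9 (chr3:122527924-122564577), which pairs with DTX3L, read 59.0, 55.6 and 56.8 CPM against 55.0, 49.9 and 50.3 CPM. The groups did not overlap, yet it did not pass the test (-0.11 ± 0.05, interval -0.21 to -0.00, adjusted p = 0.0989), although without ENZ replicate 1 it did (-0.15, adjusted p = 0.0170). DTX3L (chr3:122564338-122575203) read 68.9, 72.2 and 73.7 CPM against 66.0, 66.3 and 64.3 CPM. Its libraries did not overlap either, and its log2 fold change was -0.09 ± 0.05 (interval -0.19 to 0.00, adjusted p = 0.120). PARP9, DTX3L and PARP14 lie close together on chromosome 3, and PARP9 and DTX3L share a promoter region. PARP12 was at 9.84 ± 0.294 and 9.91 ± 0.732 CPM (0.05, interval -0.14 to 0.23).

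In the IFI group 1 of 3 tested genes rose, beside 20.5% of all tested genes. IFI35 (chr17:43006740-43014456), a cytosolic leucine zipper protein, read 11.1, 11.3 and 12.1 CPM in Control and 14.8, 15.4 and 16.2 CPM in ENZ. The groups were well apart, with a log2 fold change of 0.46 ± 0.08 (adjusted p = 8.66e-05). IFI6 had 9, 11 and 11 counts against 14, 8 and 5 (-0.23, interval -1.13 to 0.66). IFI27, a mitochondrial membrane protein often used to score interferon exposure, had 9, 15 and 10 counts against 14, 4 and 8 (-0.42, interval -1.34 to 0.49). Neither was called, and the libraries of both groups overlapped.

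Of the other effectors, MX1 rose and none fell among the 4 tested, beside 20.5% higher and 19.3% lower of all tested genes. MX1 (ENSG00000157601, chr21:41420020-41470071), a GTPase that traps viral nucleoproteins, read 3.47, 2.83 and 2.73 CPM in Control and 4.83, 5.08 and 5.27 CPM in ENZ. The groups did not overlap, and MX1 was 1.72-fold higher (log2 fold change 0.78 ± 0.13, interval 0.50 to 1.06, adjusted p = 8.04e-05). Its level per length was nevertheless low, at 0.225 FPKM over all libraries, but this depends on the length used. The FPKM implies a length close to the 17984 bases of all its annotated exons, while its longest transcript has 5778 bases. MX1 shares 562 exon bases, 3.12% of its own, with TMPRSS2 on the opposite strand. TMPRSS2, a membrane serine protease gene, read 7.91, 6.11 and 6.18 CPM against 11.2, 10.9 and 11.2 CPM (0.75 ± 0.10, adjusted p = 4.60e-06). Without strand, reads in the shared bases cannot be told apart, and the part of TMPRSS2 in the MX1 value was not tested. ISG20, an exonuclease, read 34.1, 32.6 and 32.4 CPM against 30.3, 32.0 and 32.2 CPM, just below Control, and was not called (-0.04, interval -0.16 to 0.08). BST2, which tethers budding virions, was at 3.00 ± 0.429 and 3.51 ± 0.362 CPM (0.26, interval -0.05 to 0.57). TRIM21, an antibody receptor inside the cell, was at 4.68 ± 0.128 and 4.95 ± 0.337 CPM (0.11, interval -0.13 to 0.36). SAMD9, a translation inhibitor, failed the filter with 21, 15 and 5 counts in Control and 5, 3 and 2 in ENZ. With no filter its log2 fold change was -2.02 (adjusted p = 0.00199).

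**Figure D3:**
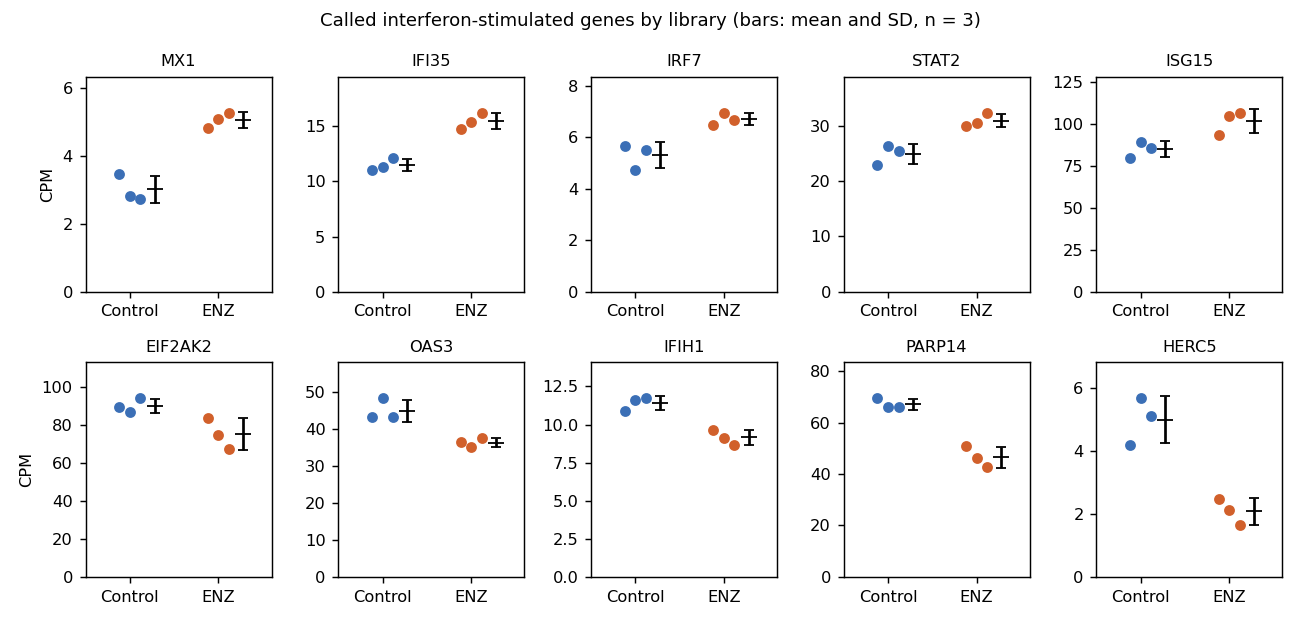
CPM of the 10 called members in each library (points, blue for Control and orange for ENZ), with the mean and SD of 3 libraries as black bars and axes that start at 0. The upper row holds the 5 members called higher and the lower row the 5 called lower. No panel has overlapping groups, but the panels were picked by adjusted p, which favours this. HERC5 shows the widest separation relative to its level.

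Fold changes over the whole table rose with GC content, and the called members followed the same order in part. The median log2 fold change of all genes was -0.18 in the 3126 genes under 40% GC and 0.14 in the 2514 genes over 60%. Members called higher had 41.8 to 66.8% GC (median 58.5%), and members called lower had 39.2 to 51.2% (median 43.2%), beside a median of 48.0% over all tested genes. When GC and length entered the fit as offsets per library, 7 of the 10 kept their call. These were HERC5 (-1.14), PARP14 (-0.39), OAS3 (-0.31), MX1 (0.89), IFI35 (0.44), STAT2 (0.30) and ISG15 (0.25). IRF7, IFIH1 and EIF2AK2 lost it, with the values given above. IFIT5 gained one (0.27, adjusted p = 0.0411). MX1 had the lowest GC content of the 5 higher members, and its value grew under the offsets.

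**Figure D4:**
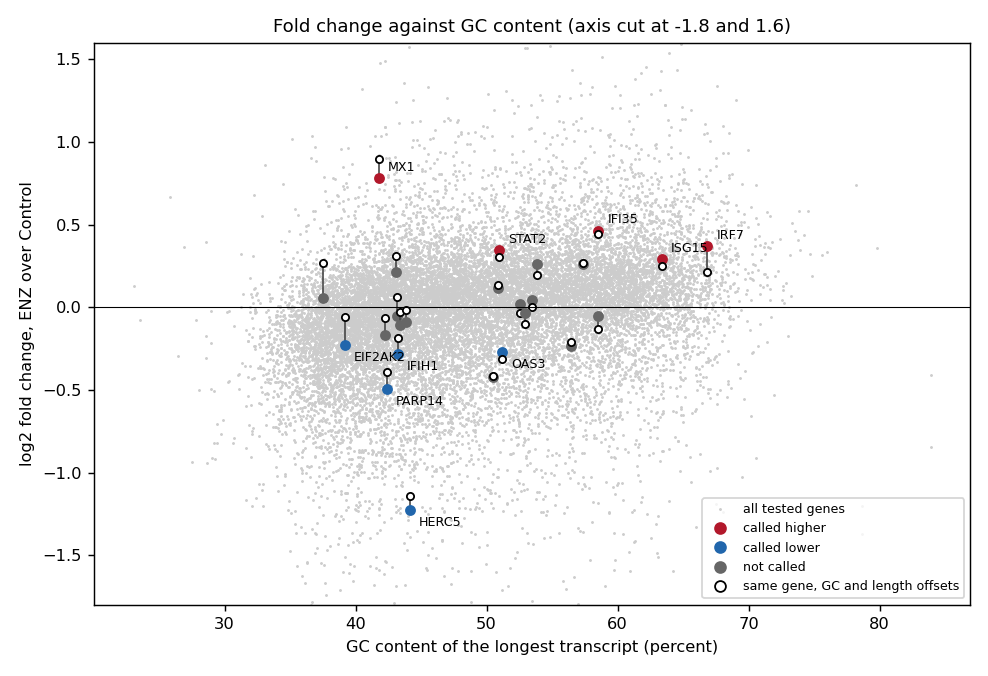
Log2 fold change of ENZ over Control against the GC content of each gene's longest transcript; grey dots are all tested genes, filled circles the tested members (red called higher, blue called lower, dark grey not called), and open circles the same members with GC and length offsets. EIF2AK2 moves from -0.23 to -0.06 and IRF7 from 0.37 to 0.22, while HERC5 moves from -1.23 to -1.14.

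The upstream part of the pathway was read from lists that hold no member of the set. Interferon genes themselves were close to absent: 6 ligand genes had a row, each was under 1 CPM, none could be tested, and together they had 12 counts over all 6 libraries. Both chains of the type I receptor were present but at unequal levels, with IFNAR1 at 13.5 FPKM and IFNAR2 at 0.275 FPKM over all libraries. Of the 6 receptor genes tested, 1 rose and 1 fell, beside 20.5% higher and 19.3% lower of all tested genes. The 2 called receptor genes were the chains for interferon gamma. IFNGR2 was at 12.9 ± 0.212 CPM in Control and 16.1 ± 1.24 CPM in ENZ (log2 fold change 0.35 ± 0.08, adjusted p = 0.00135). IFNGR1 was at 35.7 ± 1.88 and 29.2 ± 0.662 CPM (-0.25 ± 0.06, adjusted p = 0.00145). Not called were IFNAR1 at 95.6 ± 3.05 and 89.4 ± 8.12 CPM (-0.06, interval -0.17 to 0.05), IFNAR2 (0.21, interval -0.26 to 0.68), IFNLR1 (-0.03, interval -0.21 to 0.15) and IL10RB (0.34, interval -0.21 to 0.89).

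Among kinases and STAT genes, 1 of 4 rose and 1 fell, beside 20.5% higher and 19.3% lower of all tested genes. TYK2, a kinase of the type I receptor, was at 66.1 ± 1.34 CPM in Control and 58.0 ± 1.30 in ENZ (-0.15 ± 0.05, adjusted p = 0.0125). STAT3 was at 110 ± 0.241 and 118 ± 3.19 CPM (0.14 ± 0.04, adjusted p = 0.00943). JAK1 was lower per length, at 0.728 FPKM (0.12, interval -0.07 to 0.32), and JAK2 was not called (-0.20, interval -0.37 to -0.03, adjusted p = 0.0629).

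In nucleic acid sensing, 2 of 6 tested genes rose and none fell. Sensing genes were unevenly expressed: RIGI had 0.549 ± 0.154 and 0.442 ± 0.120 CPM, while the adaptor MAVS had 146 ± 5.45 and 151 ± 5.31 CPM (both named after their values were seen). In nucleic acid turnover and editing, 1 of 4 rose and 2 fell, among them PNPT1, a mitochondrial RNA exonuclease, at 164 ± 3.03 and 146 ± 7.98 CPM (-0.14 ± 0.04, adjusted p = 0.0112). Of the negative regulators, 2 of 4 tested rose and 1 fell. Of 23 other interferon-stimulated genes tested, 8 rose and 3 fell. LAMP3, a lysosomal membrane protein, rose from 19.5 ± 0.216 to 28.2 ± 1.44 CPM (0.57 ± 0.07, adjusted p = 5.61e-07). LGALS3BP, a secreted glycoprotein, rose from 0.549 ± 0.173 to 1.14 ± 0.0586 CPM (1.08 ± 0.29, adjusted p = 0.00465). Over all these lists, 65 genes had a row and 47 were tested, of which 15 rose and 8 fell. Together these are 48.9%, beside 39.8% of all tested genes (20.5% higher and 19.3% lower, each of all tested genes). Apart from LAMP3 and LGALS3BP, these differences (21 of 23) were under 0.5 on the log2 scale, and the median over the 47 was 0.08.

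**Figure D5:**
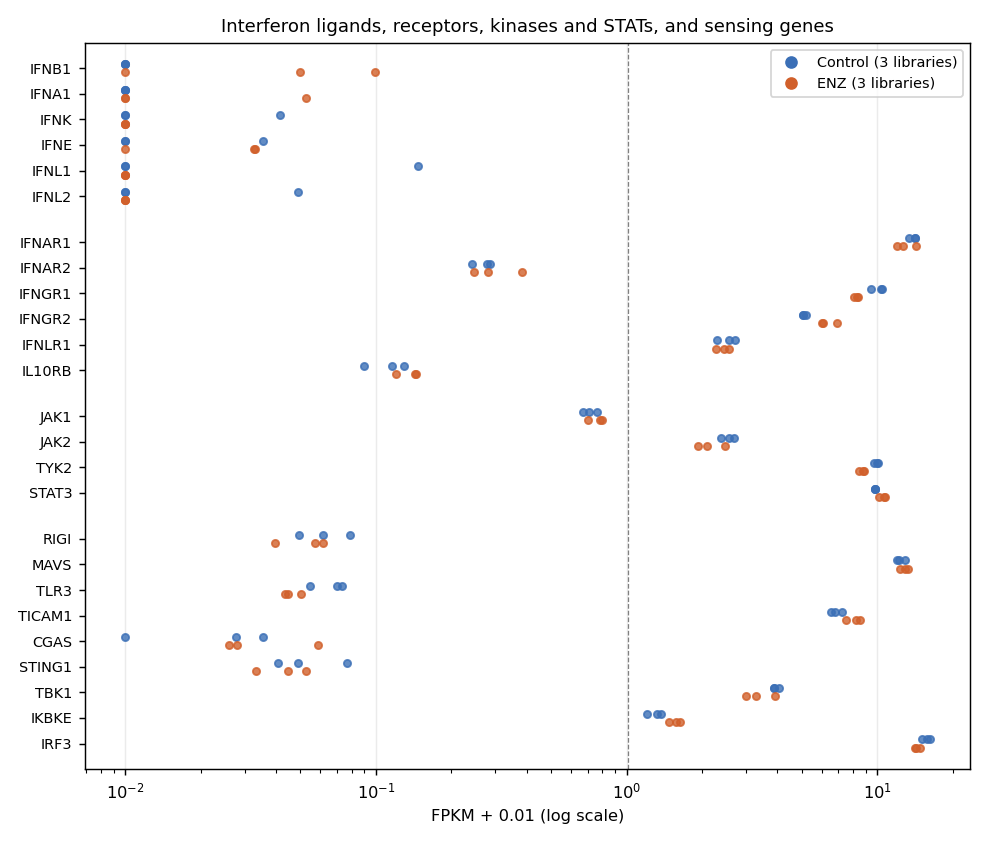
FPKM of interferon ligands, receptors, kinases and STAT genes, and sensing genes on a log axis, after a small constant was added so that 0 can be drawn; each point is 1 library, blue for Control and orange for ENZ, and the dashed line marks 1 FPKM. Ligands lie at the left end, IFNAR2 lies left of IFNAR1 by more than the spread between libraries, and RIGI lies far left of MAVS.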

How the data were processed

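Polyadenylated RNA was made into paired-end libraries with a NEBNext Ultra kit, which does not mark strand, per the labels' protocols. Tools named in the submitters' processing notes are DESeq2 1.20.0, HTSeq 0.6.1 and HISAT2 2.0.5, with the GRCh38 build. The sources used here do not state the annotation release or the counting options. The authors deposited whole-number counts per gene and FPKM values for 37923 genes. The deposited FPKM values equal count over length and library total to within 6.34e-06 percent, so they are not a separate measurement.

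Samples were grouped by title. ENZ was compared with Control in edgeR 4.0.16 (R 4.3.3) by its quasi-likelihood F test (TMM factors, filterByExpr, robust fit), and p-values were adjusted after Benjamini and Hochberg over 18581 genes. The SE is the absolute log2 fold change over the square root of F, and intervals are 95%. Library totals of 26691289 to 30025543 counts put 3 counts at 0.0999 to 0.112 CPM. Pairs within a group differed by more than sampling noise (chi-square per degree of freedom 1.93 to 6.15). The fit was also run on simulated counts, with the same extra spread for every gene and no trend with GC content. The data here differ in this, so that run is not used as support.

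The members and gene lists were chosen with earlier results of these data known. A few listed pathway and marker genes are not reported here, and the counts leave them out. Every member is named, with values per library for called members and those of at least 20 CPM. Of the other pathway genes, receptors, kinases, STAT genes and called genes past 0.5 on the log2 scale or at 100 CPM or more are named. Positions and GC content (longest transcript) are from GENCODE 44, and promoters from RefSeq. Alternatives were DESeq2 1.42.0, limma-voom (limma 3.58.1), median-ratio factors, library totals alone, other filters, limma on log2(FPKM + 1) and log2(FPKM + 0.1), a replicate block, GC and length spline offsets, and leaving out each library.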

Additional observations from a re-analysis of the deposited data

How the results depend on the processing

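No called member changed direction in any alternative run that fitted it. HERC5, IFI35, PARP14 and STAT2, 4 of the 10, also kept their call in each such run. HERC5 and MX1 were fitted in 16 of the 18 alternatives. Their mean FPKM was under the filter of 1 used on log2(FPKM + 1) and log2(FPKM + 0.1). On unfiltered log2(FPKM + 1), which compresses low genes, 4 members were called (2 higher, 2 lower) and 3728 genes in all. GC and length offsets left 3 members lower, as did the replicate block with GC and length offsets. The replicate block alone gave 10 members and 7466 genes, but same-numbered libraries did not deviate together (correlations 0.018, -0.012 and -0.046), so the numbers were not taken to pair the samples. Leaving out each library in turn gave 9 to 12 called members and 5844 to 8258 genes. ISG15, OAS3 and MX1 lost their call only on unfiltered log2(FPKM + 1). IRF7, EIF2AK2 and IFIH1 lost theirs in 4, 4 and 6 alternatives. PARP9, DTX3L and IFIT5 gained one in some, and SAMD9 was called with no filter. For the 15 members under 1 CPM, depth limits what could be seen.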
